A study of Mus musculus with 8 samples.

Results

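Pyruvate leaves glycolysis in the cytosol, enters mitochondria through the mitochondrial pyruvate carrier, and is turned into acetyl-CoA by the pyruvate dehydrogenase complex. The pyruvate dehydrogenase kinases (PDKs) switch the complex off by phosphorylating its alpha subunit, and the pyruvate dehydrogenase phosphatases (PDPs) remove that phosphate. In the heart this switch sets how much glucose carbon is oxidized against fatty acids, and Pdk4 is the kinase best known for rising in fasting and under fatty acid supply. The 10 genes described here are the kinases Pdk1, Pdk2, Pdk3 and Pdk4, the phosphatase catalytic subunits Pdp1 and Pdp2, the subunits Pdha1 and Pdhb, and the carrier subunits Mpc1 and Mpc2. They were found by matching Entrez gene IDs of the count table to mouse symbols, which gave 10 of 10 names among 27179 genes.

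Gene expression was measured by RNA-seq in neonatal cardiomyocytes (NCMs) of C57Bl/6J mice whose mothers breathed filtered air (FA) or diesel exhaust (DE) from the day of the vaginal plug until late gestation. Each of the 8 libraries came from the NCMs of 1 male heart taken on postnatal day 0, with 4 FA libraries (replicates 2, 3, 4 and 6) and 4 DE libraries (replicates 1, 3, 5 and 7). Hearts were freed of atrial and vessel tissue and dissociated with Liberase, and the cells that did not settle on a plate during a short incubation, a step meant to remove fibroblasts, were kept. The sources used here do not say which pups shared a dam, so p-values measure the spread between these pups.

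The total count per library was between 17943024 and 39839737. As a check for a library deposited more than once, which covers counting error only, the closest libraries of a group (FA replicates 2 and 4) had a chi-square per gene of 5.37, so all 8 were kept as separate samples. In the sample names DE replicates 3 and 5 carry the prefix 12 and the other 6 libraries the prefix 11, whose meaning is not given in the sources used here. Libraries also differed in how levels moved with transcript length: Spearman's rho between a library's deviation from the gene means and length, across 13851 genes, was 0.565 and 0.507 in FA replicates 2 and 4 and -0.395 and -0.530 in DE replicates 3 and 5. It was -0.299 and -0.117 in FA replicates 3 and 6, and 0.214 and 0.182 in DE replicates 1 and 7. All 5 cardiomyocyte markers were detected in every library, but their summed level was lower in DE (26445 to 30321 CPM) than in FA (37066 to 39164 CPM), and Myh6 (alpha myosin heavy chain), which holds most of that sum, was the 1 marker called, lower. Tnnt2 (cardiac troponin T) averaged 8234 CPM in FA (SD 996.9) against 7895 CPM in DE (SD 1041, n = 4 each). Ryr2, Actn2 and Tnni3 also had negative log2 fold changes without a call, given below with the markers of other cells.

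Pdk4 was the only member called in the comparison below, and its promoter is printed with that of Pdk1, the kinase that lay on the other side. Both windows run from 250 bases before to 50 bases after the annotated start (RefSeq, GRCm38.p6) and are written 5′ to 3′ along the gene. Capitals mark matches to any of the motifs searched.
Pdk4, chr6:5496229-5496528, minus strand: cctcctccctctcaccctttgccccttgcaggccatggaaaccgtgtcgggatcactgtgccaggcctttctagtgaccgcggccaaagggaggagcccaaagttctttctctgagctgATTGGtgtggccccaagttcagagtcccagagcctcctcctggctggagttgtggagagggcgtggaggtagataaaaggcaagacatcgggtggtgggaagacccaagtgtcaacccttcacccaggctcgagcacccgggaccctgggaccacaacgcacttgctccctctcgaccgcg
Pdk1, chr2:71872974-71873273, plus strand: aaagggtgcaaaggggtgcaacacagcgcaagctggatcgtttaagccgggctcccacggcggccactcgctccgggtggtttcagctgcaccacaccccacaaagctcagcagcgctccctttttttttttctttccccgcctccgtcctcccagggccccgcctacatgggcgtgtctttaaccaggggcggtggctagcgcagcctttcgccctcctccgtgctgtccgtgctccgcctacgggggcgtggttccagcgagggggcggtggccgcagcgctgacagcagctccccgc

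The motifs, searched on both strands, were the direct repeat bound by PPAR with RXR (PPRE), the AGGTCA unit of that repeat, the ERR site spelled TCAAGGTCA, the forkhead core spelled GTAAACA, the hypoxia response core spelled ACGTG, the CCAAT box and the TATA box spelled TATAAA. The unit AGGTCA also lies inside the direct repeat and the ERR site. The Pdk4 window held 1 match, to CCAAT on the other strand at position -131, and 37.4% of all 32851 windows of this length held that motif. The printed Pdk1 window held none of the 7 motifs. Among the 12 windows of the 9 members with a sequence, CCAAT lay in 7, against 37.4% of all windows. ACGTG lay in 4 (those of Pdp2, Pdhb and Pdk3 and 1 of the 2 windows of Pdk2), against 19.6%, and AGGTCA in 1 window of Mpc1, against 16.3%. The ERR site, the forkhead core and the TATA box lay in none, against 0.423, 3.65 and 13.6%. The direct repeat is rare in these short windows (0.0396% of all), and no member had it. The printed Pdk1 window held 25 CG pairs and the Pdk4 window 12, with a median of 7 over all windows. A further Pdk1 window, at chr2:71874654-71874953, held 2 CG pairs and none of the motifs.

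The exposure groups were tested against each other over 14966 genes with the quasi-likelihood method of edgeR. Calls required both an adjusted p no higher than 0.05 and a difference of at least 25%. Of the 10 members 1 was called, Pdk4, and it was lower in DE. Over all tested genes 5.80% were called, 2.22% lower and 3.58% higher, so the count of called members is near the background. An unadjusted p under 0.05 was found for 3 members (Pdk1, Pdk2 and Pdk4), against 25.6% of all tested genes. The median log2 fold change was -0.07 over the members and 0.0037 over all tested genes. Levels are given as CPM, counts scaled to a common library size with TMM factors.

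Pdk4 (Entrez gene 27273, on the minus strand of chromosome 6 between 5483351 and 5496278 in GRCm38.p6, the build of all positions here) lay at 411, 338, 390.5 and 327 CPM in FA replicates 2, 3, 4 and 6. In DE replicates 1, 3, 5 and 7 it lay at 127, 106, 113 and 180.3 CPM. Every DE library was below every FA library, and the highest DE library was replicate 7. Means were 366.7 ± 40.6 CPM for FA and 131.3 ± 33.8 CPM for DE (SD, n = 4 each). The log2 fold change was -1.48 (standard error 0.16, 95% interval -1.84 to -1.12), a 2.80-fold lower level, with an adjusted p of 0.000817 by edgeR. By p-value Pdk4 ranked 29 among the 14966 tested genes. The gene kept its call in all 21 alternatives run, with log2 fold changes from -1.68 to -1.26. In RNA from whole cell pellets, fewer cells of a type and less RNA per cell cannot be told apart.

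**Figure D1:**
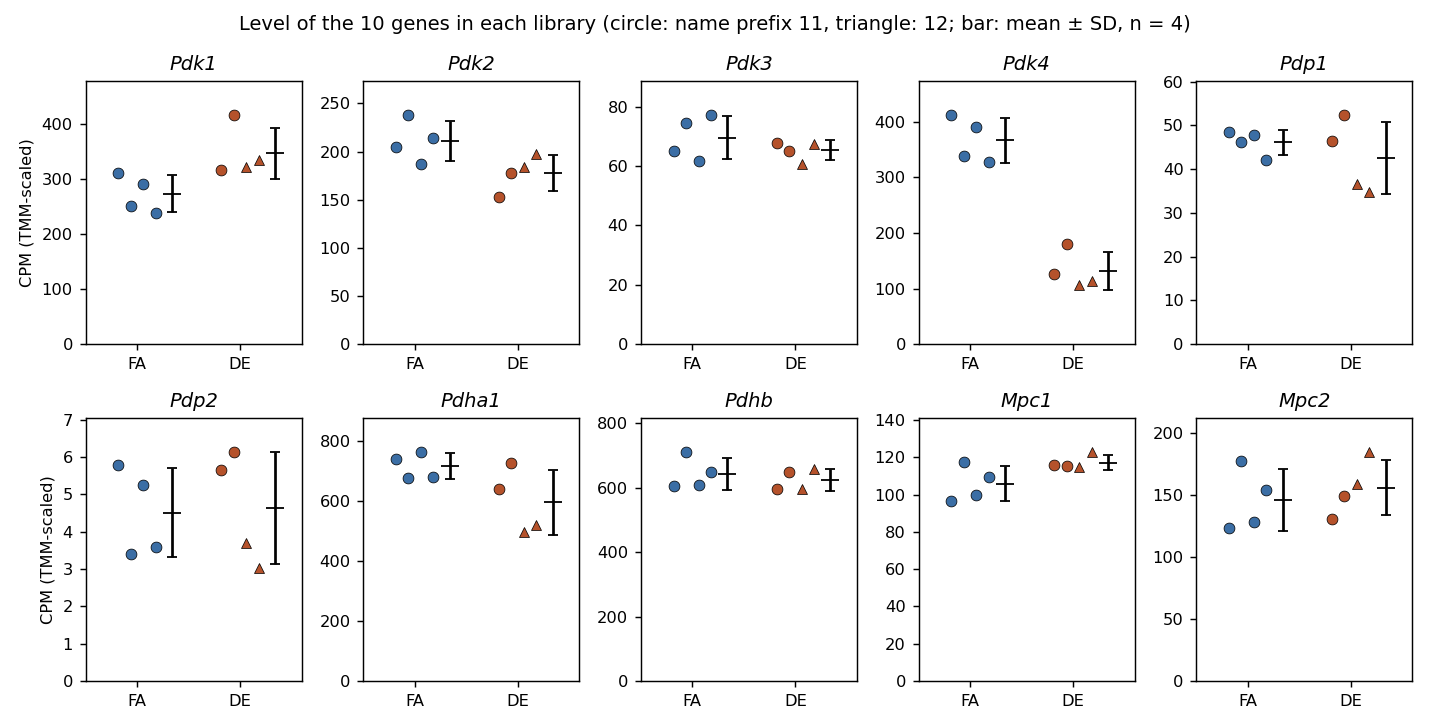
Level of each of the 10 genes in every library, in TMM-scaled CPM on an axis from 0, with FA in blue and DE in orange, circles for sample name prefix 11, triangles for prefix 12, and the bar at the right of each group giving the mean ± SD (n = 4). Pdk4 separates the groups widely, between 327 and 411 CPM in FA and between 106 and 180.3 CPM in DE, Pdk1 separates them narrowly, and the groups overlap in the other 8 panels.

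Pdk1 (chromosome 2 from 71873215 to 71903858), the kinase known as a target of hypoxia-inducible factor, went the other way without reaching the threshold. Its level was 310.5, 250.4, 291 and 239 CPM in FA replicates 2, 3, 4 and 6, and 317, 321, 334 and 415 CPM in DE replicates 1, 3, 5 and 7. The groups did not overlap, although the highest FA and the lowest DE library were only 310.5 and 317 CPM. Groups did not overlap for 14.7% of all tested genes, 7.26% lower and 7.43% higher, and for 2 of the 10 members, Pdk4 and Pdk1. The log2 fold change of Pdk1 was 0.35 (standard error 0.12, 95% interval 0.08 to 0.61, unadjusted p = 0.0162 and adjusted p = 0.112 by edgeR). An alternative fit, added with the data known, used offsets that take out how each library deviates with length and GC of the transcripts. In that fit it was 0.46 and called (adjusted p = 0.0122 by edgeR), and the adjusted p ran from 0.0122 to 0.849 over its 21 alternatives.

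Pdk2, a kinase found in most tissues (chromosome 11 from 95026258 to 95041371), lay at 204, 238, 188 and 214 CPM in FA replicates 2, 3, 4 and 6. In DE replicates 1, 3, 5 and 7 it lay at 152, 184, 197 and 177 CPM. The DE values sat lower but reached into the FA range, with DE replicate 5 above FA replicate 4. Its log2 fold change was -0.25 (standard error 0.11, unadjusted p = 0.0462 and adjusted p = 0.188 by edgeR). The same offsets gave -0.37 and a call (adjusted p = 0.0189 by edgeR), so that 3 of the 10 members were called in that fit, where 11.7% of 13851 genes were called. Over the 21 alternatives the adjusted p of Pdk2 ran from 0.0189 to 0.9999. Pdk3, on chromosome X from 93764616 to 93832150, lay between 61.8 and 77.1 CPM in FA and between 60.7 and 67.8 CPM in DE. Its log2 fold change was -0.09 (95% interval -0.31 to 0.13, adjusted p = 0.593 by edgeR).

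**Figure D2:**
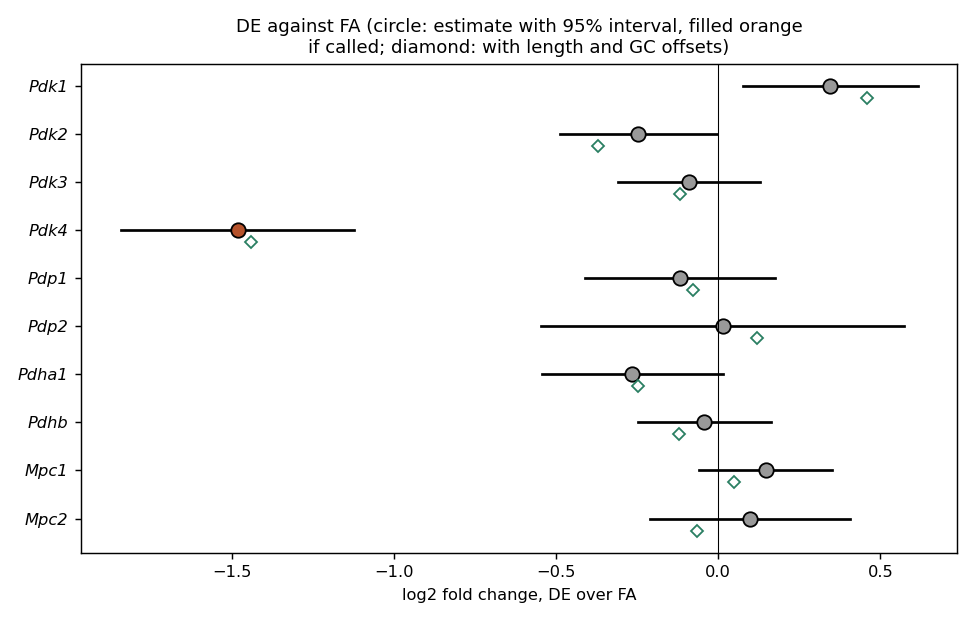
Log2 fold change of each gene, DE over FA, with its 95% interval from edgeR's quasi-likelihood fit. Pdk4 at -1.48 is the only filled orange circle, the intervals of Pdk1 and Pdk2 narrowly exclude 0, and the diamonds, which stand for the fit with length and GC offsets, put Pdk1 at 0.46 and Pdk2 at -0.37.

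To compare levels between genes, CPM was divided by transcript length in kilobases (GENCODE M21 transcripts linked to RefSeq). In FA the order of the kinases was Pdk4 (105.2 ± 11.7 CPM per kilobase), Pdk2 (93.9 ± 9.30), Pdk1 (52.6 ± 6.52) and Pdk3 (32.9 ± 3.45, SD, n = 4 each). The ranges of Pdk4 and Pdk2 overlapped in FA, while Pdk2, Pdk1 and Pdk3 stood apart from one another. In DE the order was Pdk2 (79.1 ± 8.36), Pdk1 (66.9 ± 8.90), Pdk4 (37.7 ± 9.70) and Pdk3 (30.9 ± 1.56). There the ranges of Pdk2 and Pdk1 overlapped, as did those of Pdk4 and Pdk3. Pdk4 thus had the highest mean of the 4 kinases in FA, and in DE its range overlapped that of the lowest.

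As a share of the PDK counts per length in each library, Pdk4 made up 39.4, 33.9, 39.9 and 34.5% in FA replicates 2, 3, 4 and 6. In DE replicates 1, 3, 5 and 7 its share was 18.4, 14.9, 14.9 and 21.4%. The group shares were 36.9 ± 3.14% in FA and 17.4 ± 3.12% in DE (SD, n = 4 each). Pdk1 took 18.4 ± 1.77% in FA and 31.1 ± 1.45% in DE, Pdk2 33.0 ± 3.53% and 37.0 ± 4.06%, and Pdk3 11.6 ± 1.53% and 14.5 ± 1.44%. These shares add up within a library, so a lower share of Pdk4 raises the others, and they are a description with no test.

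The ratio of Pdk1 to Pdk4 per length held within a narrow range in FA, at 0.507, 0.497, 0.501 and 0.491 in replicates 2, 3, 4 and 6. In DE replicates 1, 3, 5 and 7 it was 1.68, 2.04, 1.99 and 1.55. In FA the levels of both genes differed from library to library, and their ratio had an SD of 0.00690 around 0.499. In DE the SD was 0.240 around 1.81. Both transcripts are long, 5185 bases for Pdk1 and 3484 for Pdk4, and both genes were higher in FA replicates 2 and 4. Those libraries had the highest rho with length, and the part of length in the ratio was not tested. The sum of the 4 kinases was 284.6 ± 11.8 CPM per kilobase in FA and 214.6 ± 19.8 in DE, and the groups did not overlap. Without Pdk4 the sum of the other 3 was 179.4 ± 8.49 in FA and 176.9 ± 12.8 in DE, and the groups overlapped.

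**Figure D3:**
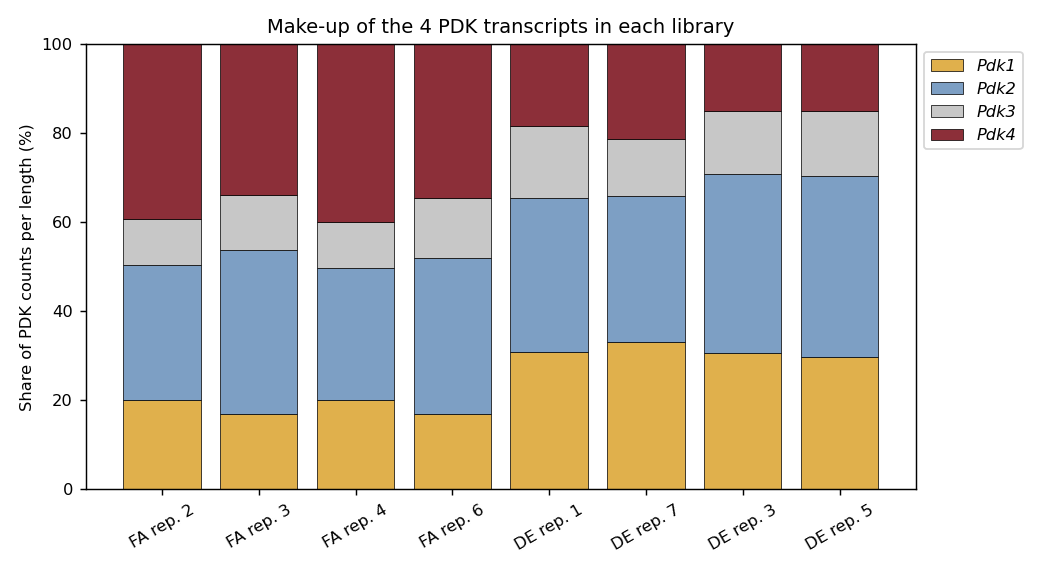
Share of each kinase in the PDK counts per length of every library, as stacked bars that add up to 100%. The Pdk4 segment spans 33.9 to 39.9% in the 4 FA libraries and 14.9 to 21.4% in the 4 DE libraries, and the Pdk1 segment is wider in every DE library.

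The phosphatases were the lowest members. Pdp1, the calcium-stimulated phosphatase that predominates in heart and skeletal muscle (chromosome 4 from 11958183 to 11966450), lay between 42.0 and 48.4 CPM in FA. In DE it lay at 46.5 and 52.3 CPM in replicates 1 and 7 and at 36.7 and 34.7 CPM in replicates 3 and 5. DE replicate 1 was thus inside the FA range, replicate 7 above it, and the prefix 12 libraries below it. DE over FA, it had a log2 fold change of -0.12 (95% interval -0.41 to 0.17, adjusted p = 0.603 by edgeR). Pdp2, on chromosome 8 from 104591472 to 104599026, rested on 68 to 216 counts per library, between 3.39 and 5.78 CPM in FA and between 3.02 and 6.13 CPM in DE. Its log2 fold change of 0.01 had a 95% interval from -0.55 to 0.57. With the length and GC offsets the standard error was 0.17, against 0.26 as reported. Per length the ratio of Pdp1 to Pdp2 was 20.6 ± 4.64 in FA and 18.4 ± 2.88 in DE (SD, n = 4 each), and the groups overlapped. The length used for Pdp1 is a mean of 2955 bases over 4 transcripts, the longest of 4201, so the ratio depends on that choice. The kinases together were 17.4 ± 0.771 times the phosphatases per length in FA and 14.5 ± 2.64 times in DE (SD, n = 4 each), and the groups overlapped, since DE replicate 5 reached 17.6.

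The catalytic subunits were the most abundant members per length. Pdha1, the alpha subunit that the kinases phosphorylate (chromosome X from 160122219 to 160138430), lay at 741, 678, 764 and 681 CPM in FA replicates 2, 3, 4 and 6. In DE replicates 1, 3, 5 and 7 it lay at 640.4, 496, 520.2 and 727 CPM. DE replicate 7 was inside the FA range and the other 3 were below it. The log2 fold change was -0.27 (standard error 0.13, 95% interval -0.54 to 0.01, adjusted p = 0.216 by edgeR). Pdhb, the beta subunit (chromosome 14 from 8165991 to 8173303), averaged 643.2 ± 49.2 CPM in FA against 624.2 ± 33.7 CPM in DE, a log2 fold change of -0.04 (95% interval -0.25 to 0.16, adjusted p = 0.799 by edgeR). The ratio of Pdha1 to Pdhb per length was 0.596 ± 0.0765 in FA and 0.507 ± 0.0881 in DE, with overlapping groups.

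The carrier subunits, whose proteins pair to form the pyruvate channel, were not called. Mpc1 (chromosome 17 from 8283787 to 8297667) averaged 106.0 ± 9.57 CPM in FA against 117.3 ± 3.80 CPM in DE, a log2 fold change of 0.15 (95% interval -0.06 to 0.35, adjusted p = 0.347 by edgeR). Mpc2 (chromosome 1 from 165461260 to 165481218) averaged 145.8 ± 25.1 CPM in FA against 155.9 ± 22.4 CPM in DE, a log2 fold change of 0.10 (95% interval -0.21 to 0.41, adjusted p = 0.694 by edgeR). The ratio of Mpc2 to Mpc1 per length was 1.28 ± 0.103 in FA and 1.24 ± 0.148 in DE.

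Some members share sequence with other genes. Stretches of 50 bases were compared with all GENCODE M21 transcripts, and those of Pdk1, Pdk2, Pdk3, Pdp1 and Mpc2 were found in no other gene. The kinases are paralogs but shared no such stretch with one another, and 98.6% of those of Pdk4 were its own. The share that was unique fell to 83.1% in Pdha1, 69.7% in Pdhb and 55.8% in Mpc1. Pdhb shares sequence with Gm6123, Mpc1 with Mpc1-ps and, on the opposite strand, with 4930506C21Rik, and Pdha1 with the opposite-strand gene Map3k15. Mpc1-ps had 11.1 to 13.3% as many counts as Mpc1 in the 8 libraries, and Map3k15 had 0.253 to 0.369% as many as Pdha1. Gm6123 and 4930506C21Rik were not found by symbol in the count table. How the counting treated shared reads and strand is not given in the sources used here, so the values of Pdha1, Pdhb and Mpc1 are uncertain to that extent.

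The members were also split by library within each group. In FA, replicates 2 and 4 were both above replicates 3 and 6 for Pdk1, Pdk4, Pdp1, Pdp2 and Pdha1, and both below them for Pdk2, Pdk3, Pdhb, Mpc1 and Mpc2. Over all tested genes the same split held for 27.7% above and 29.2% below. Transcripts of the members above were 2848 to 5692 bases long, and those of the members below 958 to 2246 bases. Spearman's rho with length was 0.565 and 0.507 in FA replicates 2 and 4, and -0.299 and -0.117 in FA replicates 3 and 6. No sample label defines this pairing of FA libraries, and the part of length in it was not tested. In DE, the prefix 11 libraries were both above the prefix 12 libraries for 4 members (Pdk4, Pdp1, Pdp2 and Pdha1) and both below for 2 (Pdk2 and Mpc2), against 30.4% and 29.9% of all genes. In a model of 3 groups the prefix 12 libraries differed from the prefix 11 libraries of DE by a log2 fold change of -0.49 for Pdk4, -0.47 for Pdp1, -0.81 for Pdp2 and -0.43 for Pdha1. None of the 10 members was called in that contrast (edgeR, lowest adjusted p = 0.0727, for Pdp1; 4 members had an unadjusted p under 0.05, against 23.3% of all genes), where 2.06% of genes were called.

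The DE libraries of each prefix were also set against the same FA libraries. Pdk4 was called in both, at -1.26 (standard error 0.16, adjusted p = 0.00229 by edgeR) for prefix 11 and -1.75 (standard error 0.16, adjusted p = 0.000269 by edgeR) for prefix 12. Pdk1 was at 0.42 and 0.26 and Pdk2 at -0.36 and -0.15 in the same order, and neither was called. Pdp1 and Pdha1 were called only for prefix 12, at -0.37 and -0.50, where 23.4% of genes were called, and stood at 0.10 and -0.07 for prefix 11, where 2.99% were. The difference between the prefixes was not called for either gene, as given above. No FA library carries prefix 12, so the prefix and the exposure cannot be told apart in the prefix 12 comparison.

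**Figure D4:**
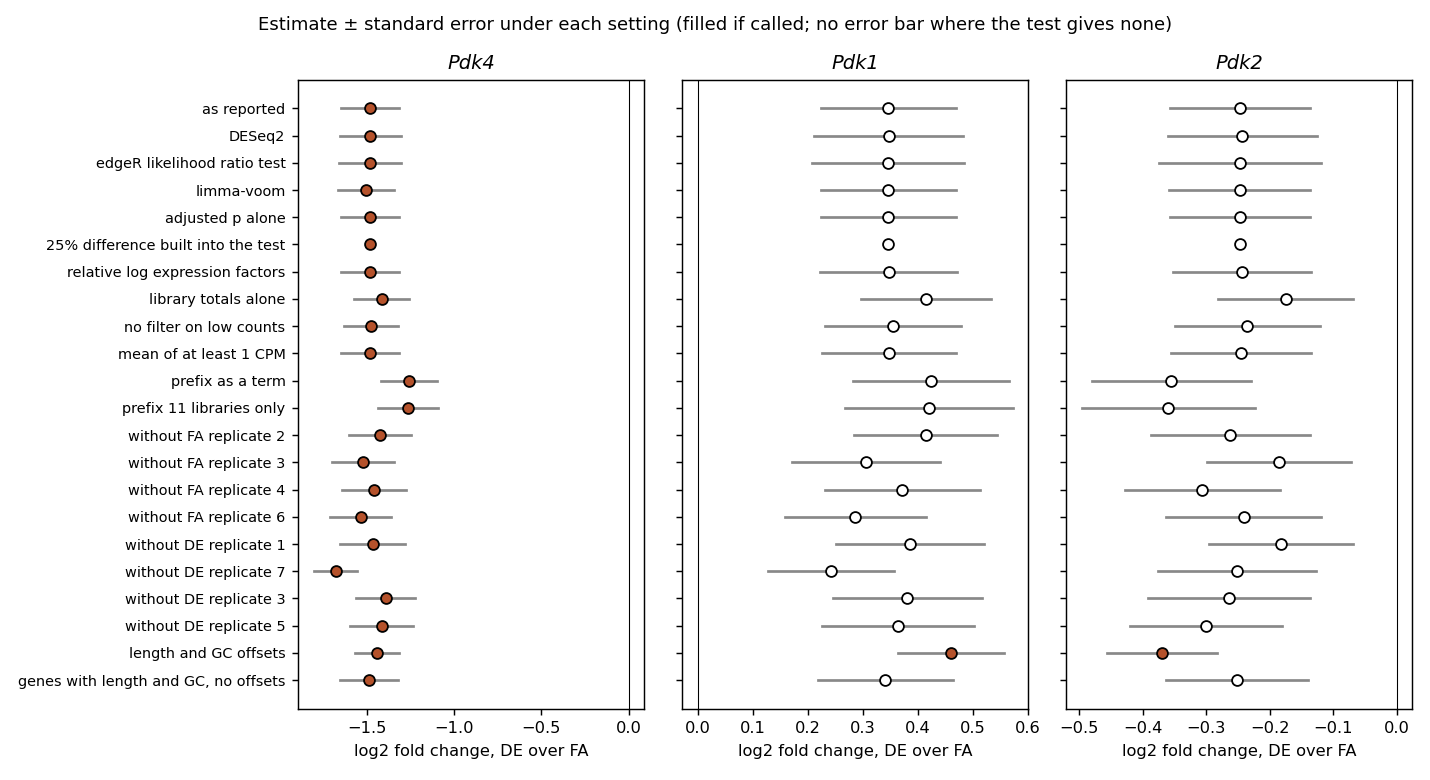
Log2 fold change of Pdk4, Pdk1 and Pdk2, DE over FA, with its standard error under the reported test and the 21 alternatives, filled where the gene was called. Pdk4 is filled in every line and stays between -1.68 and -1.26, while Pdk1 and Pdk2 are filled only with the length and GC offsets.

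The remaining parts of the complex were read from the same fit. Of 9 genes listed for the rest of the complex and the making of its lipoate cofactor, 8 were tested, 0 were called by edgeR (2 at an unadjusted p under 0.05, against 25.6% of all tested genes, 0 called by DESeq2, and Pdpr alone by limma-voom and by edgeR's likelihood ratio test), with a median log2 fold change of -0.16. Dlat, the acetyltransferase core of the complex, averaged 317.1 ± 11.3 CPM in FA against 265.0 ± 17.8 CPM in DE, a log2 fold change of -0.26 (adjusted p = 0.104 by edgeR), with groups that did not overlap. Pdpr, the regulatory subunit that restrains Pdp1, lay at 42.3, 22.7, 47.4 and 28.0 CPM in FA replicates 2, 3, 4 and 6, and at 21.5, 5.42, 5.76 and 19.8 CPM in DE replicates 1, 3, 5 and 7. The prefix 12 libraries were far below all others, and the DE prefix 11 libraries were just below FA replicate 3. DE over FA, Pdpr had a log2 fold change of -1.44 (SE 0.43, adjusted p = 0.0743 by edgeR, 0.0172 to 0.235 over the alternatives). Against FA it was at -0.76 for the DE libraries of prefix 11, the value also given by the prefix term, and at -2.65 for those of prefix 12. The difference between the DE prefixes was itself called for Pdpr, at -1.89 (standard error 0.30, adjusted p = 0.0332 by edgeR).

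For thiamine, the source of the cofactor of the Pdha1 and Pdhb component, 0 of 4 genes were called by edgeR (1 at an unadjusted p under 0.05, where the share of all tested genes is again 25.6%, and 1 called by DESeq2). The thiamine transporter Slc19a3 had a log2 fold change of -0.29 (adjusted p = 0.473 by edgeR), which was -0.59 without DE replicate 1 (adjusted p = 0.0681 by edgeR) and -0.09 with the prefix 11 libraries only. For the sister dehydrogenase complexes and their own kinase and phosphatase, 0 of 9 genes were called by edgeR (2 at an unadjusted p under 0.05, and Ogdh alone called by DESeq2 and the likelihood ratio test). There Ogdh, a subunit of the oxoglutarate dehydrogenase complex, was at -0.42 (adjusted p = 0.0648 by edgeR) and Dhtkd1 at -0.30 (adjusted p = 0.440). Without single libraries Dhtkd1 ran from -0.54 to -0.16. The median log2 fold changes of these lists were -0.10 and -0.09.

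The genes that make pyruvate or take it elsewhere had 5 calls among 13 genes, 4 higher and 1 lower, against 3.58% higher and 2.22% lower over all tested genes. Slc16a3, a lactate exporter, rose by 2.13 on the log2 scale (standard error 0.33), from 10.2 ± 1.01 to 44.3 ± 21.9 CPM. Ldha, the lactate dehydrogenase subunit of muscle type, rose from 715.9 ± 46.1 to 1170 ± 123 CPM, by 0.71 (standard error 0.10). Pcx, which carboxylates pyruvate to oxaloacetate, rose by 0.68, and Pkm, the kinase that forms pyruvate, rose by 0.39 (adjusted p = 0.0461 by edgeR, called in 10 of its 21 alternatives). Me1, the cytosolic malic enzyme, fell by 0.69 on the log2 scale, from 56.8 ± 6.92 to 35.3 ± 2.23 CPM. The median of the 13 genes was -0.04. Slc16a3 also differed between the DE prefixes, by 1.27 (adjusted p = 0.0339 by edgeR), and was called in the DE libraries of either prefix against FA.

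Of 7 genes listed for citrate and acetyl-CoA use, 3 were called, and the median log2 fold change was -0.23. Slc25a20, the carnitine-acylcarnitine carrier, fell by 1.12 on the log2 scale (standard error 0.10), from 138.4 ± 12.5 to 63.8 ± 4.12 CPM. Crat, which buffers acetyl-CoA as acetylcarnitine, fell from 457.3 ± 26.4 to 326.1 ± 38.2 CPM (-0.49), and Slc25a1, the citrate carrier, rose from 4.82 ± 0.177 to 7.47 ± 1.26 CPM (0.63). Crat lost its call without FA replicate 2, 3 or 4 or DE replicate 3 or 7 (adjusted p up to 0.0674 by edgeR). Slc25a1 lost it without any single FA library or without DE replicate 3 or 5 (up to 0.106 by edgeR). The call of Slc25a1 was also lost with the prefix as a term (0.44, adjusted p = 0.153 by edgeR) and with prefix 11 only (0.43, adjusted p = 0.191 by edgeR). Against FA it was called for the DE libraries of prefix 12, at 0.79, and not for those of prefix 11. Of 14 factors and coactivators known to act on Pdk genes, 1 was called, and the median log2 fold change was -0.19. An unadjusted p under 0.05 was found for 6 of the 14, against 25.6% of all tested genes. Ppargc1b, a coactivator of PPAR and ERR, fell from 31.0 ± 7.10 to 18.3 ± 1.76 CPM (-0.76, called in 15 of its 21 alternatives), and Pparg was at 0.62 (adjusted p = 0.0565 by edgeR, called in 5 of its 21 alternatives, DESeq2 and the likelihood ratio test among them). Over the 55 tested genes of the 6 lists, 9 were called, with 5 higher and 4 lower, against 5.80% of all tested genes. These lists were chosen with earlier results known, and 1 of the 14 factors was called by edgeR and by limma-voom, and 2 by DESeq2 and by the likelihood ratio test.

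**Figure D5:**
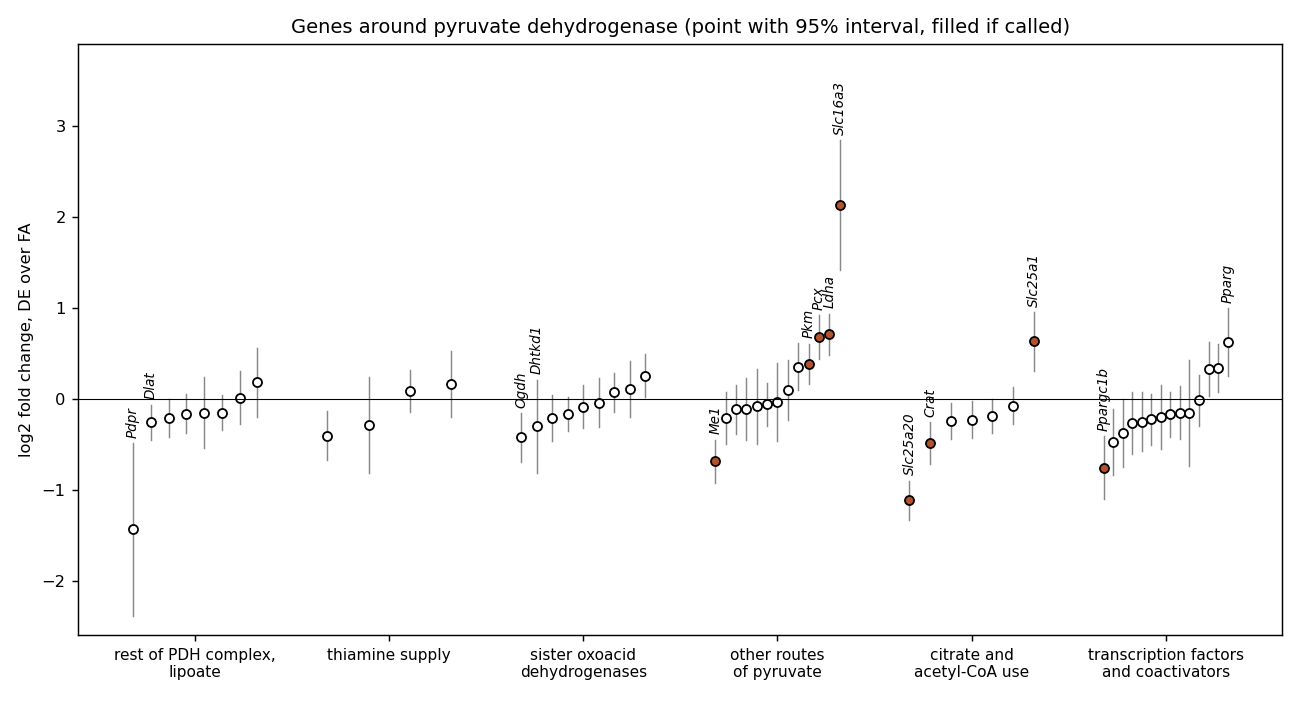
Log2 fold change, DE over FA, with 95% intervals, for the 55 tested genes of 6 lists around pyruvate dehydrogenase, sorted within each list and filled where called. The called genes are 4 higher and 1 lower among other routes of pyruvate, 1 higher and 2 lower in citrate and acetyl-CoA use, and 1 lower among the factors, with none in the first 3 lists.

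The genes most like Pdk4 were found by the correlation of log2 CPM over the 8 libraries, among 9189 genes that averaged 10 CPM or more. They were Acsl1, an acyl-CoA synthetase (Pearson's r 0.990), Rbfox1, a splicing regulator (0.983), and Abcd3, a peroxisomal transporter (0.983). Acsl1 lay between 872.9 and 943 CPM in FA and between 393 and 517 CPM in DE. These libraries share the exposure groups and the length pattern, so r is a description, and all 3 genes were themselves called lower.

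Markers of other cells that the pellets could hold were read beside these results. The summed level of 6 fibroblast markers was 1689 to 2972 CPM in FA and 3170 to 5147 CPM in DE, and 2 of them, Col1a1 and Dcn, were called higher. Of the 5 cardiomyocyte markers, whose sums are given above, 1 was called (Myh6, lower), while the log2 fold changes were -0.06 for Tnnt2, -0.06 for Tnni3, -0.16 for Actn2 and -0.62 for Ryr2 (adjusted p = 0.152 by edgeR for Ryr2). The 5 endothelial markers summed to 759.6 to 998.4 and 792.5 to 1205 CPM, and the 5 smooth muscle and pericyte markers to 1053 to 1685 and 743.8 to 1080 CPM, with 0 called in either list. Erythroid markers summed to 429 to 1023 and 674 to 1123 CPM, with Slc4a1 called higher, and atrial markers to 521 to 1289 and 516 to 794 CPM, with 0 called. The leukocyte sum was 11.4 to 17.8 and 14.2 to 24.8 CPM and the hepatocyte sum 1.02 to 2.06 and 1.60 to 3.17 CPM, with 4 and 2 of 5 markers tested, 0 called, and Serpina1a at 0 in all libraries. Brown adipocyte markers summed to 36.8 to 44.4 and 26.7 to 35.0 CPM, with Cidea called lower. The skeletal muscle sum, mostly of Ckm, was 1033 to 1379 and 1114 to 1444 CPM, with 0 called and Myod1 at 0 in all libraries. The part of other cells in the difference of Pdk4 was not tested.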

How the data were processed

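RNA-seq libraries (poly-A selected, stranded mRNA kit) were aligned by the authors to mm10 with TopHat, and the submitters' processing notes also name FastQC, Picard, GATK, Cufflinks and featureCounts. The authors deposited 1 table of raw counts per Entrez gene, with no normalization, for 27179 genes in 8 libraries. PCR duplicates were marked and kept, so counts are not independent molecules. The methods give fewer hearts per group for RNA-seq than the 4 libraries that the labels hold, and all 8 labelled libraries were used.

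Entrez IDs were matched to symbols and positions of the RefSeq GRCm38.p6 table (25275 matched). Genes were kept by filterByExpr (minimum count 10), which left 14966, and the groups were tested with edgeR 4.0.16 (R 4.3.3), TMM factors and the quasi-likelihood test. Adjusted p-values are Benjamini-Hochberg values over all 14966 genes, and a call needs at most 0.05 and at least a 25% difference. The biological coefficient of variation was 15.9%. Intervals are 95% intervals. Alternatives were DESeq2 1.42.0, limma-voom 3.58.1, edgeR's likelihood ratio test, other scaling, filters and call rules, the name prefix as a term, prefix 11 only, each library left out, and, added after the data were seen, length and GC offsets (splines, 5 degrees of freedom each). The tests were checked on simulated data.

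Members and gene lists were chosen with earlier results of these data known. The text names the 10 members, each called gene and the 2 of largest absolute fold change in every other list, the 3 genes most like Pdk4 (log2 of CPM plus 0.5), and marker genes that were called or at 0. The other cardiomyocyte markers and Ckm were added after their values were seen. No promoter window of Pdp1 was used here. An item that this naming rule would also give is not reported here.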

Additional observations from a re-analysis of the deposited data

Results flagged for a closer look

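Ogdh, a subunit of the oxoglutarate dehydrogenase complex, lay at 1061 CPM in FA replicate 6, and the nearest FA library was at 817.1 CPM. The gap took up 0.867 of the range of the 4 FA libraries, above Dixon's critical value for 4 values. It was 1 of 60 groups of libraries examined, and a few such gaps arise by chance among that many.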

How the results depend on the processing

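Pdk4 was called in all 21 alternatives. Without single libraries its log2 fold change ran from -1.68 to -1.39, that of Pdk1 from 0.24 to 0.41 and that of Pdk2 from -0.31 to -0.18, with neither of the last 2 called. The length and GC offsets called 3 members instead of 1, with Pdk1 at 0.46 and Pdk2 at -0.37, and the same genes without offsets gave 1. Signs that turned belonged to genes not called: Pdp2 was at -0.064 with limma-voom and from -0.15 to 0.18 without single libraries, and Pdhb was at 0.027 with library totals alone and from -0.078 to 0.0061 without single libraries. With the prefix as a term, and with prefix 11 only, Pdp1 was at 0.098 and 0.094, Mpc2 at -0.059 and -0.064, and Dhtkd1 at 0.056 and 0.052. The offsets put Mpc2 at -0.066. The causes were not tested.

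The count of called genes was 868 as reported, 1633 with DESeq2, 1603 with the likelihood ratio test, 114 with the 25% difference built into the test, 448 with the prefix term, 260 with prefix 11 only, 1625 with offsets, and 237 to 1168 without single libraries (249 without FA replicate 2, 433 without FA replicate 3, 237 without FA replicate 4, 268 without DE replicate 3 and 526 without DE replicate 5). Calls in the 6 other lists numbered 9 as reported, 3 with the difference built in, 16 with offsets and 5 to 11 without single libraries (5 without FA replicate 2, FA replicate 4 or DE replicate 3). Library totals alone moved the share of higher calls from 61.8% to 78.7%, and the built-in difference moved it to 38.6%. Over all results and alternatives, 542 values kept their direction and call (or, for counts, stayed within 1.5 times the reported one), 34 lost a call, 16 gained one, 14 changed sign, and 17 counts moved further than that. Some of the 542 were fixed in advance. The Pdk4 share within a library does not move with scaling, and dropping the 25% rule can change calls but no estimate. Pdp2 rested on the fewest counts of the members. No paired analysis was possible because FA and DE share only replicate number 3.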
